A study of Mus musculus with 6 samples.

Results

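The transcripts described here encode the Z-disc, M-band and titin-associated proteins that hold the filaments of a sarcomere in register. The set was given as 35 named genes, with no measured value in the rule that named them. It was chosen with earlier results of these data known. Of these 35 genes, 34 had a row among the 34492 rows of the array, 32 under their present symbol and 2 under an older name, Xirp1 as Cmya1 and Mybpc1 under a clone name. Trim55, the muscle ring-finger protein MuRF2, had none. A row was tested when its detection score, which is 1 minus the detection p-value, lay above 0.95 on at least 3 of the 6 arrays. This left 25 members for testing among 12611 rows, and 9 members fell short of it.

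In a striated muscle the thin actin filaments of neighbouring sarcomeres are cross-linked at the Z-disc by alpha-actinin, and the thick myosin filaments are tied together at the M-band by myomesins. Titin spans from one to the other as a molecular spring. Calsarcins, myotilin, PDZ-LIM proteins, filamin C and desmin anchor to the Z-disc and connect it to signalling, to neighbouring myofibrils and to the cell membrane.

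Total RNA came from whole soleus, a calf muscle made largely of slow fibres, of male mice aged 11 months. The 3 Coco/KO samples came from mice in which cardiac actin replaces skeletal muscle alpha-actin, per the series title, and the 3 wild-type samples carry the same strain designation, CBB6F1xFVB/n. Each sample pooled RNA of 2 muscles from different mice, so that p-values measure the spread between pools. Neither the promoter that drives the cardiac actin nor the number of transgenic lines is given in the sources used here.

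All 6 samples were hybridised to 1 Illumina beadchip, and the mean deposited intensity per array lay between 330.2 and 470.2 units. Between 33.65% and 37.9% of rows were detected per array. The exchanged actins followed the labels: Acta1 had a log2 difference of -4.59 (SE 0.20, limma adjusted p = 2.79e-05, n = 3 per group) and Actc1 one of 2.44 (SE 0.31, limma adjusted p = 0.0283), both Coco/KO minus wild type. The Coco/KO array 1 stood apart from the other arrays, with a mean correlation to them of 0.970 against values from 0.976 to 0.978. All 9 slow-fibre markers passed the detection filter, as did 11 of 12 fast-fibre markers, and for the other, Mylpf, no row was found. Of 6 heart markers 2 passed it, and Myh6, Myl7 and Nppa were detected on no array.

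None of the 25 tested members differed between the genotypes at an adjusted p of 0.05 (limma with Benjamini-Hochberg adjustment over all 12136 genes tested), where 18 genes, or 0.148% of all, passed (0.0659% of all higher and 0.0824% lower in Coco/KO). At an unadjusted p of 0.05 there were 2 members, Ttn and Smpx, or 8% of the 25, where 8.21% of all genes passed. Second rows of members under clone names are not counted here. Of these, the row of Myoz3 had an unadjusted p of 0.022 (limma), and those of Capza2 and Synpo2 had 0.72 and 0.75. The arrays of the genotypes did not overlap for 3 members, Ttn, Smpx and Actn4, or 12% of the 25, where 12.7% of all genes did not overlap. Of these, Smpx was higher in Coco/KO, as were 6.16% of all genes, and Ttn and Actn4 were lower, as were 6.58% of all genes. The members' shares therefore lay near those of all genes. The median log2 difference was 0.03 over the members and 0.0014 over all genes, and 13 members had a positive and 12 a negative difference. Differences here and below are Coco/KO minus wild type on a normalized log2 scale.

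What the arrays could exclude differed from member to member. For 21 of the 25 members the whole 95% interval of the difference lay within 1 log2 unit of 0. This also held for 11103 of all 12136 genes tested. The exceptions among the members were Ttn (from -1.24 to -0.20), Xirp1 (from -1.26 to 0.56), Mybpc2 (from -0.85 to 1.32) and Myoz1 (from -1.02 to 0.28). The intervals hold for the normalized scale only. Values added before the logarithm understate differences of dim members such as Actn4, where a larger difference is not excluded. The median standard error was 0.21 for the members and 0.18 for all genes.

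**Figure D1:**
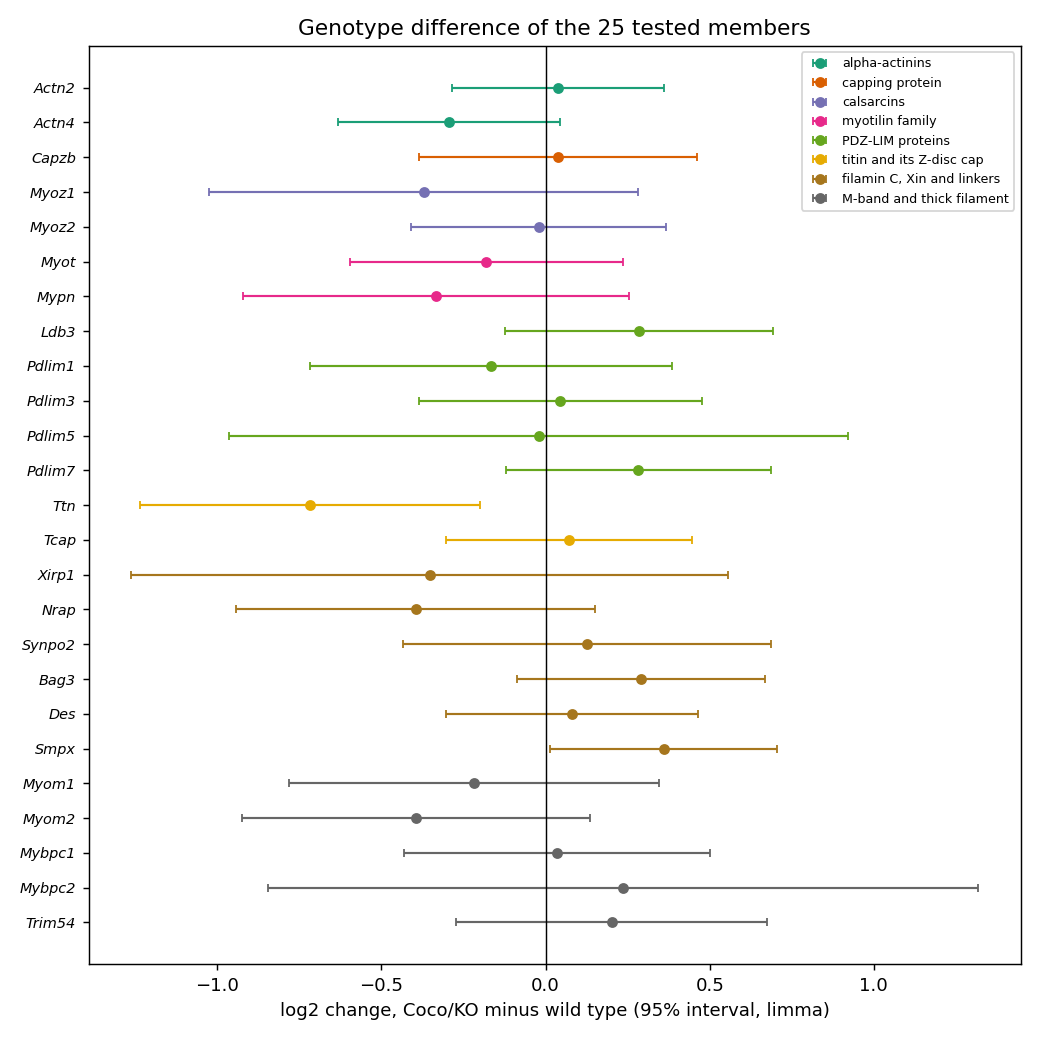
Log2 difference (Coco/KO minus wild type, horizontal axis) of each of the 25 tested members (vertical axis, coloured by role), as points with 95% intervals from limma on 3 arrays per genotype. Only the intervals of Ttn and Smpx leave out 0, before any adjustment for the number of genes.

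Promoter sequences are shown for the members whose arrays did not overlap between genotypes, so that the letters upstream of these genes can be read beside their values. Each window runs from 250 bases before to 50 bases after the gene's start as annotated by RefSeq on GRCm38.p6. Capitals mark 5 searched motifs on either strand, which may overlap: the E-box CANNTG bound by myogenic factors, the MCAT element CATTCC, the letters TATAAA, the MEF2 site and the CArG box bound by serum response factor. The window of Ttn is chr2:76982498-76982797 on the minus strand, that of Smpx is chrX:157698723-157699022 on the plus strand and that of Actn4 is chr7:28962283-28962582 on the minus strand.
Ttn: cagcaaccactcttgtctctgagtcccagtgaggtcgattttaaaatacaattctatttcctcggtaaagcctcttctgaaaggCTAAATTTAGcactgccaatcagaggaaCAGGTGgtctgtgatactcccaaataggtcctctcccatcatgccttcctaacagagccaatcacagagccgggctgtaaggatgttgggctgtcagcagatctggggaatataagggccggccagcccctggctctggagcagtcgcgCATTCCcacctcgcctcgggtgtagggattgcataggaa
Smpx: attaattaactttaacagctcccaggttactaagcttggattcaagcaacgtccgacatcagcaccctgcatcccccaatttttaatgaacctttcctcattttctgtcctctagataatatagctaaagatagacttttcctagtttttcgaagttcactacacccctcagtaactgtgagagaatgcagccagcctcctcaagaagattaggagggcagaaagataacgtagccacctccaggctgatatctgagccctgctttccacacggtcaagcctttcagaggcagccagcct
Actn4: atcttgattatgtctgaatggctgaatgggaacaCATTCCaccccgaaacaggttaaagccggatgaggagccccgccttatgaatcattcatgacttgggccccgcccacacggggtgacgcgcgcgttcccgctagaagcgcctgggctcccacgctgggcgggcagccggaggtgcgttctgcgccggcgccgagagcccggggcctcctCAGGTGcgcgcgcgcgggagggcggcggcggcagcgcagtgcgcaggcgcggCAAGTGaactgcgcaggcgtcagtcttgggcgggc

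The Ttn window held 1 MEF2 site, 1 E-box and 1 MCAT element, the Actn4 window held 2 E-boxes and 1 MCAT element, and none of the 5 motifs was found in the Smpx window. RefSeq windows were found for 27 of the 35 members, and a gene with several windows was counted once if any of them held the motif. Among these 27, 21 had an E-box, 8 an MCAT element, 5 a MEF2 site, 4 the letters TATAAA and 2, Ldb3 and Myom1, a CArG box. Of the 27 members, 77.8% held an E-box, 29.6% an MCAT element, 18.5% a MEF2 site, 14.8% TATAAA and 7.41% a CArG box, which are descriptions with no test. Counted in the same way over all 27025 genes with a window, the shares were 75% for the E-box, 16.6% for the MCAT element, 3.7% for the MEF2 site, 15.7% for TATAAA and 1.81% for the CArG box. A match describes the letters only and is not a shown binding site.

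Titin (listed as TTN), the giant spring that runs from Z-disc to M-band, showed the largest difference among the 25 members. Its deposited intensity was 1132, 1313 and 1924 units on Coco/KO arrays 1, 2 and 3, against 1682, 3620 and 2007 units on wild-type arrays 1, 2 and 3. After normalization its log2 signal was 10.13, 10.76 and 10.61 on the Coco/KO arrays, against 11.08, 11.61 and 10.97 on the wild-type arrays. All 3 Coco/KO arrays thus lay below all 3 wild-type arrays on the normalized scale, although the deposited intensities overlapped. The Ttn signal averaged 10.50 ± 0.33 in Coco/KO and 11.22 ± 0.34 in wild-type soleus (SD, n = 3 each). The difference of -0.72 (SE 0.23), a 1.64-fold lower signal, had an unadjusted p of 0.012 and did not pass over all genes (limma, adjusted p = 0.418). It kept its sign in all 18 alternative settings, from -0.89 to -0.52, and was -0.53 without Coco/KO array 1.

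Telethonin (Tcap, listed as TCAP) caps the Z-disc end of titin and showed no such difference. Its normalized log2 signal was 14.92, 14.86 and 14.58 on the Coco/KO arrays, against 14.82, 14.82 and 14.50 on the wild-type arrays. The lowest value of each genotype came from array 3, and the genotypes overlapped. The difference was 0.07 (SE 0.16, 95% interval from -0.30 to 0.45, limma adjusted p = 0.972).

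Smpx (listed as SMPX), a small X-linked muscle protein known from stretch responses and costameres, lay higher on every Coco/KO array than on any wild-type array on the normalized scale. Its deposited intensities overlapped, with 12556, 11352 and 13999 units on the Coco/KO arrays, against 6829, 12095 and 10658 units on the wild-type arrays. Its normalized log2 signal was 13.65, 13.72 and 13.47 on the Coco/KO arrays, against 13.09, 13.40 and 13.29 on the wild-type arrays. The gap between the lowest Coco/KO and the highest wild-type array was small, and the genotype averages were 13.62 ± 0.13 and 13.26 ± 0.16 (SD, n = 3 each) in Coco/KO and wild-type soleus. The difference of 0.36 (SE 0.15), a 1.28-fold higher signal, did not pass over all genes (limma, unadjusted p = 0.043, adjusted p = 0.594). It ranged from 0.27 to 0.44 over the alternatives, and was 0.35 without Coco/KO array 1.

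The alpha-actinins cross-link actin at the Z-disc in muscle, as Actn2 and Actn3, and outside the sarcomere, as Actn1 and Actn4. Actn2, the form present in all fibre types, had among the tightest values of the set, with log2 signals of 14.79, 14.67 and 14.71 on the Coco/KO arrays, against 14.70, 14.81 and 14.54 on the wild-type arrays. The genotypes overlapped, and the difference was 0.04 (SE 0.14, 95% interval from -0.28 to 0.36, limma adjusted p = 0.986). Actn3, the fast-fibre form, was detected on 1 array only, so that it was not tested with the filter. Its intensity was 126.8, 131.7 and 26.8 units on the Coco/KO arrays, against 41.6, 57.4 and 209.3 units on the wild-type arrays, and the highest and the lowest array belonged to different genotypes.

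Actn4 (listed as ACTN4), a non-muscle alpha-actinin, was the third member without overlap. Its normalized log2 signal was 6.56, 6.89 and 6.84 on the Coco/KO arrays, against 7.12, 7.03 and 7.02 on the wild-type arrays. The difference of -0.29 (SE 0.15) did not pass (limma, unadjusted p = 0.080, adjusted p = 0.672), and it was -0.04 when the background was modelled and -0.19 without Coco/KO array 1. Its deposited intensities lay between 32.6 and 70.3 units in Coco/KO and between 69.6 and 86.4 units in wild-type soleus, and so overlapped slightly. Actn1 was detected on 1 array and had intensities between 26.8 and 57.5 units.

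Actn4 is made by many cell types of a whole muscle, and the values of markers of such cells on the same arrays are given beside it. In bulk tissue, fewer cells of a type and less RNA per cell cannot be told apart. Of 8 smooth muscle and pericyte markers 3 were tested, all with a negative difference and a median of -0.65, and Lmod1 and Smtn were detected on no array. Of the 3 tested, 2 had an unadjusted p below 0.05 (limma), where 8.21% of all genes did. The normalized arrays did not overlap for 1 of them, where 12.7% of all genes did not. Their summed deposited intensity, before normalization, lay between 3521 and 6435 units on the Coco/KO arrays and between 5278 and 8353 units on the wild-type arrays, which overlap. Of 15 macrophage and leukocyte markers 13 were tested, and 12 of these had a positive difference, with a median of 0.68. Of these 13, 6 had an unadjusted p below 0.05 (limma), where 8.21% of all genes did. The arrays did not overlap between genotypes for 5 of the 13, where 12.7% of all genes did not. Their summed deposited intensity lay between 4666 and 14464 units on the Coco/KO arrays and between 3446 and 4676 units on the wild-type arrays. These ranges overlap slightly, and Ptprc was detected on no array. Of 7 tested adipocyte markers 6 had a negative difference, with a median of -0.76. So had 5 of 10 fibroblast and tendon markers (median -0.03) and 4 of 6 endothelial markers (median -0.11). An unadjusted p below 0.05 (limma) was found for 4 adipocyte, 2 fibroblast and tendon and 0 endothelial markers, where 8.21% of all genes had one. The arrays did not overlap for 2, 3 and 1 markers of these lists in the same order, where 12.7% of all genes did not. No marker of these lists passed the adjusted threshold, and their part in the Actn4 values was not tested.

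**Figure D2:**
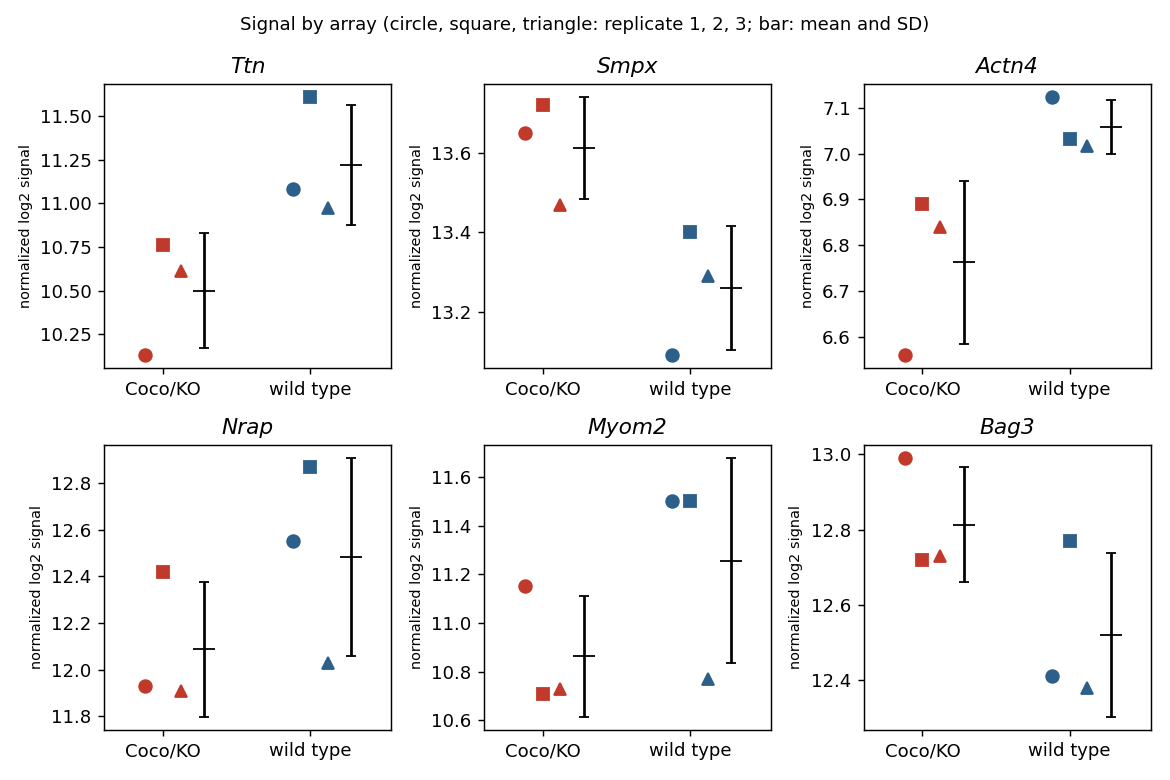
Normalized log2 signal (vertical axis) of 6 members on each Coco/KO and each wild-type array, with the mean and SD of the 3 arrays beside the points. Ttn, Smpx and Actn4 have no overlap between genotypes, and the arrays of Nrap, Myom2 and Bag3 overlap.

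Capping protein, a dimer that closes the barbed ends of actin filaments at the Z-disc, was measured for its beta subunit. Capzb had log2 signals of 10.53, 10.37 and 10.00 on the Coco/KO arrays, against 10.49, 10.08 and 10.21 on the wild-type arrays. The genotypes overlapped fully, with a difference of 0.04 (SE 0.19, limma adjusted p = 0.991). The Capza1 row was detected on no array, with intensities between -14.6 and 1.3 units. The Capza2 row had intensities between 95.7 and 271.2 units but a detection score below 0.95 on all 6 arrays, and a second row, under an older clone name of Capza2, was detected on all 6 arrays with a difference of -0.08 (SE 0.21, limma adjusted p = 0.978).

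The calsarcins link alpha-actinin to the phosphatase calcineurin and divide by fibre type, Myoz1 and Myoz3 in fast and Myoz2 in slow fibres and heart. Myoz2 had log2 signals of 14.32, 14.47 and 14.00 on the Coco/KO arrays, against 14.42, 14.31 and 14.13 on the wild-type arrays, with a difference of -0.02 (SE 0.17, limma adjusted p = 0.997). Myoz1 had 13.94, 12.87 and 12.77 on the Coco/KO arrays, against 13.53, 13.54 and 13.64 on the wild-type arrays. Coco/KO array 1 was thus the highest of all 6 arrays for Myoz1 and the other Coco/KO arrays the lowest. The Myoz1 difference of -0.37 (SE 0.29, limma adjusted p = 0.828) became -0.75 without Coco/KO array 1 (limma, adjusted p = 0.135), and over all alternatives the adjusted p lay between 0.135 and 0.9999.

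The row named Myoz3 was not detected on any array. A row under an older clone name of Myoz3 was detected on all 6 arrays, with log2 signals of 10.47, 10.06 and 9.97 on the Coco/KO arrays, against 10.78, 10.79 and 10.45 on the wild-type arrays. One Coco/KO array lay just above the lowest wild-type array. The difference was -0.51 (SE 0.18) and did not pass (limma, unadjusted p = 0.022, adjusted p = 0.480).

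Myotilin and myopalladin, immunoglobulin-domain proteins of the Z-disc that bind actin and alpha-actinin, had negative differences that did not pass. Myot had -0.18 (SE 0.18, limma adjusted p = 0.895) and Mypn -0.33 (SE 0.26, limma adjusted p = 0.831). Mypn was detected on 3 wild-type arrays but on 1 Coco/KO array only. The genotype with the higher signal thus carried Mypn past the filter, so its difference is no independent evidence. The Mypn signal was 8.52, 8.50 and 8.51 on the Coco/KO arrays, against 8.66, 9.48 and 8.38 on the wild-type arrays, and wild-type array 2 stood highest. Without that array the Mypn difference was -0.02. Palld, palladin, which is made in many cell types, had intensities between 251.1 and 514.8 units but a score above 0.95 on 1 array only.

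The PDZ-LIM proteins bind alpha-actinin through their PDZ domain and kinases or other partners through their LIM domains. Ldb3, also called ZASP or Cypher, had log2 signals of 10.53, 10.32 and 9.93 on the Coco/KO arrays, against 10.06, 9.96 and 9.92 on the wild-type arrays. Pdlim7, Enigma, had 10.98, 11.26 and 10.89 on the Coco/KO arrays, against 10.99, 10.50 and 10.79 on the wild-type arrays. Both overlapped, and each had a difference of 0.28 (SE 0.18, limma adjusted p = 0.750). With 1 array left out the difference lay between 0.15 and 0.45 for Ldb3 and between 0.15 and 0.40 for Pdlim7. The other 3 lay nearer to 0, with -0.17 for Pdlim1, 0.04 for Pdlim3 and -0.02 for Pdlim5. The Pdlim1 difference lay between -0.43 without wild-type array 3 and -0.03 without wild-type array 2. Pdlim5 was one of the most variable members, with 10.75, 10.55 and 11.64 on the Coco/KO arrays, against 10.07, 11.58 and 11.35 on the wild-type arrays, and its sign changed in 7 of 17 alternatives.

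Filamin C, the Xin proteins and their partners form links between the Z-disc, the membrane and the myotendinous junction. Nrap, an anchoring protein of myofibril ends, had log2 signals of 11.93, 12.42 and 11.91 on the Coco/KO arrays, against 12.55, 12.87 and 12.03 on the wild-type arrays. Its difference of -0.40 (SE 0.24, limma adjusted p = 0.745) ranged from -0.62 to -0.20 over the alternatives. Xirp1 had 9.76, 9.91 and 10.13 on the Coco/KO arrays, against 10.20, 11.27 and 9.39 on the wild-type arrays. The highest and the lowest Xirp1 value both came from wild-type arrays, and the difference of -0.35 (SE 0.40, limma adjusted p = 0.922) became 0.14 without wild-type array 2.

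Flnc and Xirp2 were bright but missed the detection filter. The Flnc intensity was 1225, 1600 and 2060 units on the Coco/KO arrays, against 1893, 2897 and 1293 units on the wild-type arrays, with scores above 0.95 on 1 array. The Xirp2 intensity was 2351, 2252 and 5124 units on the Coco/KO arrays, against 1504, 4382 and 2284 units on the wild-type arrays, with scores above 0.95 on 2 arrays. The score and the intensity thus did not go together for these rows. Such a row may average several probes, which the files do not state, so what its intensity stands for is uncertain. Over the whole array 339 of 5801 rows with at least 100 units on every array, or 5.84%, missed the filter in this way. With no filter, the differences were -0.31 (SE 0.27) for Flnc, 0.25 (SE 0.28) for Xirp2, -0.24 (SE 0.21) for Capza2 and -0.11 (SE 0.24) for Palld, and none of the 34 members passed (limma), where 0.0681% of all genes did. At an unadjusted p of 0.05 none of the 9 added members was found, where 6.53% of all genes without a filter were.

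Bag3, a co-chaperone that takes damaged filamin to autophagy, and Synpo2, which works with it, were not called. Bag3 had log2 signals of 12.99, 12.72 and 12.73 on the Coco/KO arrays, against 12.41, 12.77 and 12.38 on the wild-type arrays. Wild-type array 2 lay within the Coco/KO values, while the other wild-type arrays lay below them. The Bag3 difference was 0.29 (SE 0.17, limma adjusted p = 0.717), between 0.21 and 0.41 over the alternatives. Synpo2 had a difference of 0.13 (SE 0.25, limma adjusted p = 0.964), and a second row under an older clone name gave 0.08 (SE 0.23). Desmin, the intermediate filament protein that joins neighbouring Z-discs, had log2 signals of 11.33, 11.54 and 11.01 on the Coco/KO arrays, against 11.13, 11.27 and 11.25 on the wild-type arrays. The Des difference was 0.08 (SE 0.17, 95% interval from -0.30 to 0.46, limma adjusted p = 0.967).

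At the M-band, Myom2, the M-protein richest in fast fibres, had log2 signals of 11.15, 10.71 and 10.73 on the Coco/KO arrays, against 11.50, 11.50 and 10.77 on the wild-type arrays. Wild-type array 3 lay with the Coco/KO arrays. The difference was -0.40 (SE 0.23, limma adjusted p = 0.732), and it ranged from -0.64 to -0.27 over the alternatives. Myom1, myomesin, had 11.28, 10.72 and 10.23 on the Coco/KO arrays, against 10.98, 11.04 and 10.86 on the wild-type arrays. The Coco/KO arrays lay on both sides of the wild-type arrays for Myom1, with a difference of -0.22 (SE 0.25, limma adjusted p = 0.922).

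Myosin-binding protein C sits on the thick filament in a slow form (Mybpc1), a fast form (Mybpc2) and a cardiac form (Mybpc3). Mybpc1 had log2 signals of 12.32, 12.18 and 11.75 on the Coco/KO arrays, against 12.24, 12.19 and 11.73 on the wild-type arrays. These values ran nearly alike in both genotypes, with a difference of 0.03 (SE 0.21, limma adjusted p = 0.993). Mybpc2 was the most variable of the 25 members, with 8.40, 9.05 and 7.53 on the Coco/KO arrays, against 7.76, 7.42 and 9.09 on the wild-type arrays. Its difference was 0.24 (SE 0.48, limma adjusted p = 0.966). Mybpc3, the heart form, had intensities between 3.7 and 21.8 units and was detected on 1 array. Trim54, the ring-finger protein MuRF3 of microtubules and Z-discs, had a difference of 0.20 (SE 0.21, limma adjusted p = 0.900) and ranged from 0.0087 to 0.34 with 1 array left out, lowest when wild-type array 3 was dropped.

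The balance of fast against slow or general isoforms was set against the genotype within each array. Actn3 was detected on 1 of 6 arrays, so no test of Actn3 minus Actn2 is given. The log2 signal of Myoz1 minus that of Myoz2 differed by -0.35 between the genotypes (exact two-sided permutation test, p = 0.5), and by -0.70 without Coco/KO array 1 and -0.086 without Coco/KO array 2. Mybpc2 minus Mybpc1 differed by 0.20 (exact permutation p = 0.7), and the sign changed without Coco/KO array 2, wild-type array 1 or wild-type array 2. Myom2 minus Myom1 differed by -0.18 (exact permutation p = 0.7), between -0.37 without wild-type array 3 and -0.053 without Coco/KO array 1. The smallest p that 3 arrays against 3 allow is 0.1. Over these 3 contrasts the Benjamini-Hochberg adjusted value was 0.7 for each. Of the fibre-type markers, 8 of 9 slow-fibre genes had a positive difference with a median of 0.05, and 9 of 11 fast-fibre genes a negative one with a median of -0.16. The summed deposited intensity of the fast-fibre list lay between 130630 and 183560 units on the Coco/KO arrays and between 160220 and 204070 units on the wild-type arrays. That of the slow-fibre list lay between 211140 and 234860 units on the Coco/KO arrays and between 204440 and 245570 units on the wild-type arrays. An unadjusted p below 0.05 (limma) was found for 1 slow-fibre and 2 fast-fibre genes, where 8.21% of all genes had one. The arrays did not overlap for 2 slow-fibre and 0 fast-fibre genes, where 12.7% of all genes did not. None of either list passed the adjusted threshold, and their part in the values of Myoz1, Myom2 and Mybpc2 was not tested.

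The spread between pools, which also holds the error of labelling and hybridisation, exceeded the error over the beads of an array. Between 16 and 65 beads stood behind each value of a tested member. The standard error over the beads of an array had a median of 0.08 log2 units over the 25 members, and the SD between pools of a genotype had a median of 0.29. The SD between pools was above the bead error for all 25 members, from 0.10 for Actn2 to 0.82 for Mybpc2. For Actn4 both were close, with 0.13 between pools and 0.12 over beads. After Mybpc2, the largest spreads between pools were those of Pdlim5 (0.71), Xirp1 (0.68), Myoz1 (0.46) and Mypn (0.40).

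**Figure D3:**
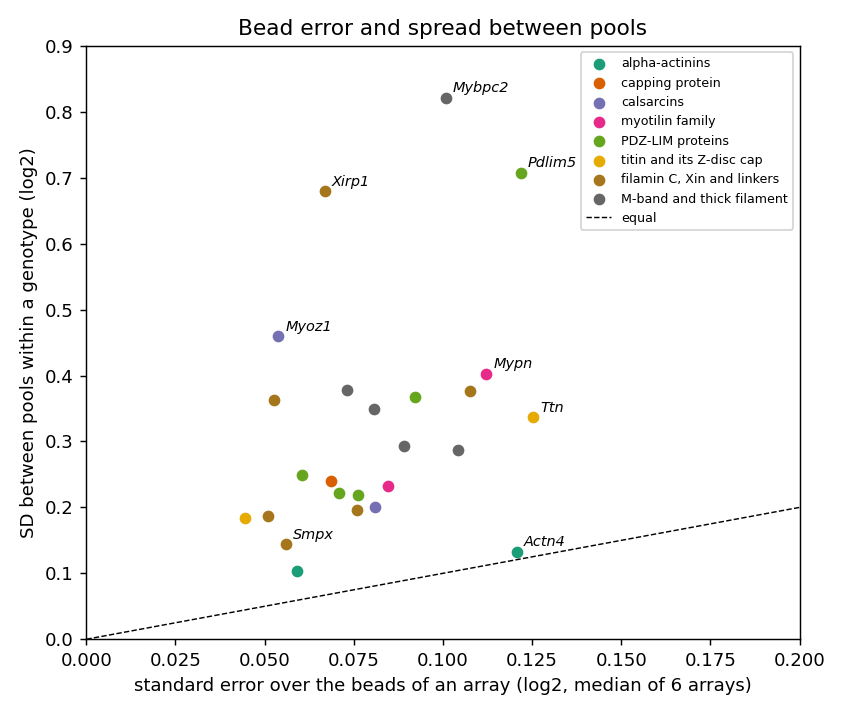
Standard error over the beads of an array (horizontal axis, log2 units, median of 6 arrays) against the SD between pools within a genotype (vertical axis, log2 units) for the 25 tested members, coloured by role. All points lie above the dashed line of equality, and Mybpc2, Pdlim5 and Xirp1 lie highest.

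Members also moved together from array to array within a genotype. Among the Coco/KO arrays, array 3 was the lowest for 15 of the 25 members, or 60.0%, while it was the lowest for 33.8% of all genes. Among the wild-type arrays, array 3 was the lowest for 16 members, or 64.0%, against 31.9% of all genes, and array 2 was the highest for 13 members, or 52.0%, against 33.1% of all genes. The median deviation of the members from their genotype mean was -0.16 log2 units on Coco/KO array 3 and -0.14 on wild-type array 3. These shares describe 6 arrays and carry no test, since members of 1 array share its RNA. Xirp1, Mypn, Nrap and Ttn were all highest among wild-type arrays on array 2, by 0.98, 0.64, 0.39 and 0.39 log2 units above the wild-type mean. Mybpc2 ran the other way, 0.67 below its mean on wild-type array 2 and 0.99 above it on wild-type array 3.

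**Figure D4:**
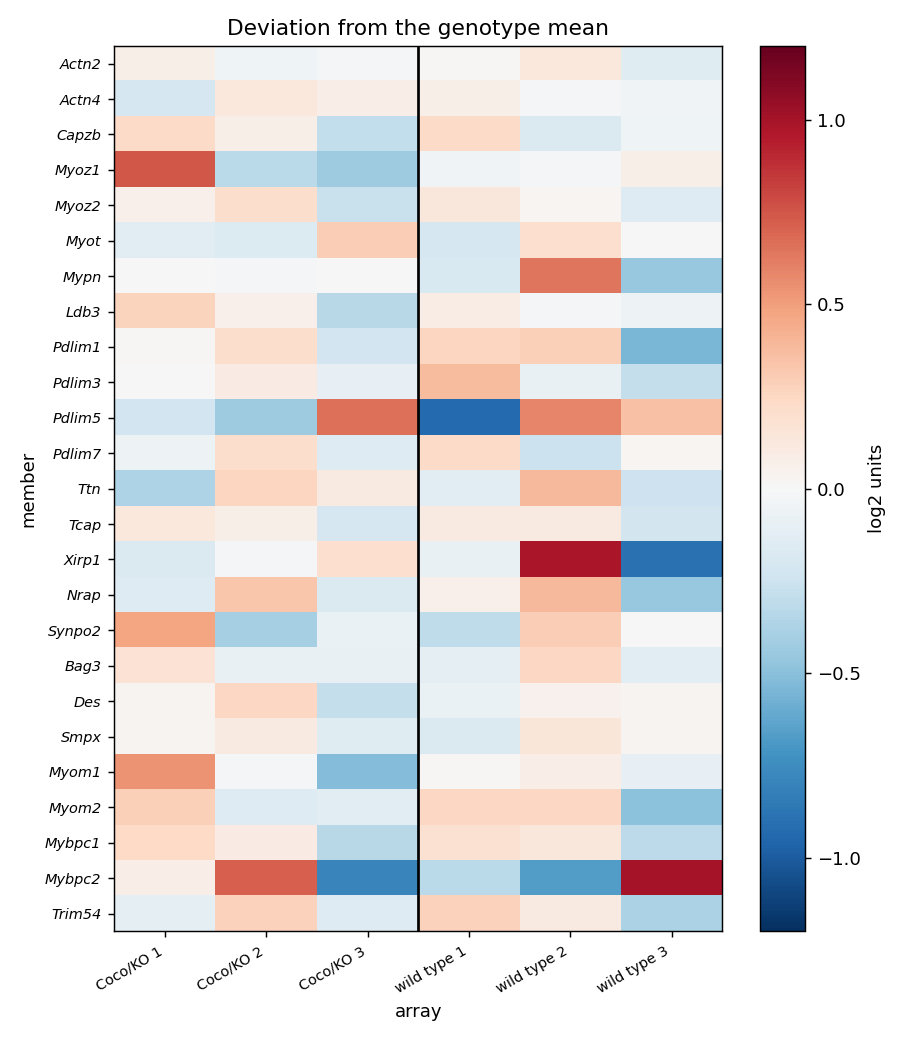
Deviation of each tested member (rows) on each array (columns) from the mean of its genotype, in log2 units, with red above and blue below the mean. The third array of each genotype is mostly blue, and Xirp1 and Mybpc2 show opposite signs on wild-type arrays 2 and 3.

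Other genes of the same structures were read from lists of non-members. Of 27 titin, Z-disc and M-band partners 26 were tested, none passed the adjusted threshold, 15 had a positive and 11 a negative difference, and the median was 0.07. At an unadjusted p of 0.05 (limma) there were 6 of them, where 8.21% of all genes passed, and 8 had no overlap between genotypes, where 12.7% of all genes had none. The 3 of lowest p were Obsl1, an obscurin-like protein of the M-band (0.53, SE 0.14, limma adjusted p = 0.312), the LIM protein Fhl3 (-0.76, SE 0.20, limma adjusted p = 0.314) and Ankrd1, a stretch-responsive ankyrin repeat protein that binds titin (1.25, SE 0.34, limma adjusted p = 0.339).

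Of 18 costamere and intermediate filament partners 10 were tested, none passed, and 3 had a positive and 7 a negative difference. The arrays of the genotypes overlapped for all 10, where those of 12.7% of all genes did not. At an unadjusted p of 0.05 (limma) there was 1 of the 10, where 8.21% of all genes passed. This was Synm, synemin, an intermediate filament partner of desmin, with -0.84 (SE 0.31, limma adjusted p = 0.495). Vim, vimentin, followed with 0.51 (SE 0.25) and the cytolinker Plec, plectin, with -0.32 (SE 0.20). Of 10 chaperone partners of Bag3 9 were tested, and all 9 had a positive difference, with a median of 0.17. Of all 12136 genes, 6105 had a positive difference. None of the 9 passed, and the arrays overlapped for all 9, where those of 12.7% of all genes did not. At an unadjusted p of 0.05 (limma) there was 1 of them, where 8.21% of all genes passed. This was the small heat shock protein Hspb7 (0.90, SE 0.39, limma adjusted p = 0.606). Wild-type array 2 (12.38) lay within the Coco/KO values of Hspb7, and wild-type array 3 was the lowest of all arrays (10.54). Hspb1 (0.51, SE 0.26), also lowest on wild-type array 3 (11.75), and the inducible chaperone Hspa1b (0.62, SE 0.32) were next.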

How the data were processed

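Per the file headers, the authors exported the scanner table with BeadStudio 3.2.6 without normalization, and its deposited intensity values, 1 row per gene target, reach below 0, so a background had been subtracted. The deposited detection score is a fraction, 1 minus the detection p-value. The submitters' processing notes also name limma. The authors' value table of 46632 probes was not used, because nothing here pairs its probes with genes.

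A constant of 42.7 that brought the lowest value to 1 and an offset of 16 were added, which understates differences of dim genes. Then log2 was taken and arrays were quantile normalized. Row names were updated with RefSeq GRCm38.p6 (22815 of 34492 rows matched), and the brightest detected row stood for a gene; a member's second row under an older name was kept apart. A linear model per gene (limma 3.58.1, R 4.3.3) tested the genotypes, with Benjamini-Hochberg adjustment at 0.05. The procedure was tested on simulated data. The planned Actn3 minus Actn2 contrast is not tested in the text, since Actn3 was detected on 1 array. Members, gene lists and tests were chosen with earlier results of these data known. Values on all 6 arrays are given for members without overlap and members of the 4 isoform contrasts, as the rule for named genes set, and for further members chosen after their values were seen. Only partners of lowest p, up to 3 per list, are named.

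Further marker lists were computed for adipocytes (6 of 7 tested genes with a negative difference, median -0.76), fibroblasts and tendon (5 of 10, median -0.03), endothelium (4 of 6, median -0.11) and heart (1 of 2, median 0.21).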

Additional observations from a re-analysis of the deposited data

How the results depend on the processing

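Of the 18 alternatives, none called a member (limma, adjusted p from 0.135 upward), and none called a partner gene. The median difference of the members stayed between -0.14 and 0.10. Over all genes, 5 were called with median scaling, 11 with an offset of 50, 2 with modelled background, 9 with rows detected on all 6 arrays, 11 with chip position in the model and between 5 and 29 with 1 array left out. Over all tested genes, same-numbered replicates did not deviate together (correlations of -0.05, -0.29 and 0.09). The members' median deviation, however, was -0.16 and -0.14 on array 3 of Coco/KO and wild type, and 0.07 and 0.12 on array 2. With the replicate number as a block 0 members were called. Of the 25 tested members, 13 kept their sign throughout and 12 changed it in at least 1 alternative. With chip position, Actn2 was -0.0057, Capzb -0.15, Pdlim3 -0.14, Pdlim5 0.51, Tcap -0.055 and Mybpc1 -0.17. Pdlim5 was 0.018 with median scaling and 0.0033 with array weights. With 1 array left out the ranges were -0.033 to 0.10 for Actn2, -0.074 to 0.19 for Capzb, -0.12 to 0.12 for Myoz2, -0.094 to 0.23 for Pdlim3, -0.49 to 0.27 for Pdlim5, -0.039 to 0.18 for Tcap, -0.80 to 0.14 for Xirp1, -0.11 to 0.32 for Synpo2, -0.044 to 0.22 for Des, -0.49 to 0.038 for Myom1, -0.13 to 0.20 for Mybpc1 and -0.12 to 0.73 for Mybpc2. The Actn3 minus Actn2 contrast, with Actn3 detected on 1 array, had a value of 0.05 and was -0.036 with median scaling, -0.0024 with cyclic loess, -0.022 with modelled background and between -0.31 and 0.56 with 1 array left out. Mybpc2 minus Mybpc1 lay between -0.20 and 0.86 with 1 array left out. The cause of these shifts was not tested. Filter, trend, array weights and threshold do not enter the contrasts. With 3 arrays per genotype, the number of arrays limits the precision.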
